A study of Mus musculus with 12 samples.

Results

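The cholesterol and fatty acid synthesis genes described here are 32 of the 56832 gene entries in a table of RNA sequencing counts from mouse bone marrow macrophages. They were taken by symbol, as a list of enzymes and regulators of both pathways, and all 32 had enough counts to be tested among 15758 genes. Their counts in single libraries ran from 26 for Tm7sf2 to 15821 for Acly. Flow cytometry had selected CD45+ F4/80+ cells without Ly6g or Ly6c, a gate meant to keep macrophages and to leave out neutrophils and classical monocytes. There were 4 groups of 3 libraries each: female leukemic, male leukemic, female non-leukemic and male non-leukemic mice. Leukemic mice had received cells of bcCML, a mouse model of blast-crisis chronic myeloid leukemia, and were sampled at day 11 with late-stage disease. Non-leukemic mice are called healthy by the submitters. The labels give no age, strain or allele, do not say whether animals were pooled, and name no marker in the gate that would tell transplanted leukemic cells from host cells. Total counts per library were 22437689 to 30014855 in the leukemic libraries and 16911827 to 26611831 in the non-leukemic libraries.

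Cholesterol is built from acetyl-CoA through mevalonate, isoprenoid units, squalene and lanosterol, and fatty acids are built from acetyl-CoA through malonyl-CoA and then elongated and desaturated. Transcription of both pathways is driven by the SREBP factors, which Srebf1 and Srebf2 encode. When sterols in the endoplasmic reticulum are low, the escort protein encoded by Scap carries SREBP to the Golgi for cleavage, and when sterols are high the Insig proteins hold both back. In macrophages these pathways supply membrane for growth and phagocytosis and are known to respond to inflammatory and interferon signals.

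SREBP binds sterol regulatory elements, often together with the factor NF-Y, which binds CCAAT boxes. The letters TCACNCCAC (a classical sterol regulatory element) and CCAAT were searched on both strands, so that ATTGG also counts as a match to CCAAT. The windows ran from 250 bases before to 50 bases after the start sites in RefSeq (GRCm38.p6). Of the 32 genes, 25 had a promoter in that table, with 33 promoters in all, and Fdps, Fdft1, Sqle, Stard4, Scd1, Scd2 and Fads1 had none. A gene was counted if any of its promoters held a match. CCAAT was found for 20 of these 25 genes (80.0%), against 41.1% of the 27025 genes in the table. Counted by promoter, it was found in 21 of 33 (63.6%), against 37.4% of the 32851 promoters in the table. TCACNCCAC was found for 1 of 25 (4.0%), Hmgcs1, against 1.44% of all genes. Among the genes that passed the test of leukemic against non-leukemic libraries described further on, 7 of the 8 with a promoter held CCAAT (87.5%), and among those that did not pass 13 of 17 did (76.5%). These matches describe letters in a window and not binding. The 150 bases before the start site are given here for the 6 genes that passed, had 1 promoter in the table and held a match in that stretch, because together they show how the boxes sit before the start. Capitals mark the matches. Each sequence is written 5′ to 3′ on the strand of its gene.
Hmgcs1, chr13:119690201-119690350, plus strand: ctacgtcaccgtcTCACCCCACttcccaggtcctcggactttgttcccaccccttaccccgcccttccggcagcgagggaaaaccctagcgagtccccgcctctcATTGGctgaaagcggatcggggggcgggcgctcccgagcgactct
Mvd, chr8:122443423-122443572, minus strand: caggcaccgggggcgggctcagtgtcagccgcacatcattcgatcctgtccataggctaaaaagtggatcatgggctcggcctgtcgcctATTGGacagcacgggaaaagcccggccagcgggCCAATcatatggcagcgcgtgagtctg
Lss, chr10:76531455-76531604, plus strand: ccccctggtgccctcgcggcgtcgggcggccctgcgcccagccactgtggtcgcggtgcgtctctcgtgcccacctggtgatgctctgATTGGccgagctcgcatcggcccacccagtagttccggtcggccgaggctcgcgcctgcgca
Cyp51, chr5:4104698-4104847, minus strand: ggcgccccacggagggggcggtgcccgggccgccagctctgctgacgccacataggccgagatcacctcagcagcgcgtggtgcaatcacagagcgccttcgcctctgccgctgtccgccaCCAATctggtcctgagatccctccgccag
Srebf2, chr15:82147119-82147268, plus strand: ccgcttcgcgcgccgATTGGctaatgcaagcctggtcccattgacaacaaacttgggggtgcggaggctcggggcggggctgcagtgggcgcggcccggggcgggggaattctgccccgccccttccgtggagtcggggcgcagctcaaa
Fasn, chr11:120824548-120824697, minus strand: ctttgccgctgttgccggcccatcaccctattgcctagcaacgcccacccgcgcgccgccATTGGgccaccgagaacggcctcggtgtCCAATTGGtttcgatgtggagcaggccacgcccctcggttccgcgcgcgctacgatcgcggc
In Hmgcs1 the sterol element began 137 bases and the CCAAT box 45 bases before the start. The boxes of Lss and Cyp51 began 62 and 29 bases before it, and those of Mvd 60 and 27 bases before it. Srebf2 had its box 135 bases before the start, farther away than in the other 5 genes. Fasn held 3 matches, which began 90, 62 and 59 bases before the start, and the last 2 overlap in a palindrome. The 3 promoters of Dhcr7 held 2 boxes in 1 of them, and the promoter of Elovl6, which also passed, held none.

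Transcripts that mark other cell types were found in these libraries, and many of them changed with leukemia. CPM is the count of a gene scaled to a library total of 1000000. A marker is said here to rise or fall (be lower) only where it passed the test of leukemic against non-leukemic libraries described below. Of all genes tested, 8.71% passed that test as higher and 9.2% as lower. Summed CPM of 12 macrophage markers were 499 to 1171 in leukemic and 1235 to 4582 in non-leukemic libraries, and 7 of the 12 fell. Of 11 erythroid markers measured all 11 fell, with sums of 726 to 1429 CPM in leukemic and 14901 to 19355 CPM in non-leukemic libraries. Neutrophil markers summed to 12821 to 27681 CPM in leukemic and 28777 to 67083 CPM in non-leukemic libraries, with 7 of 12 lower. Their sum was above that of the macrophage markers in both conditions although the gate was Ly6g-, but sums of different gene lists do not rank cell types. Elane, Mpo, Prtn3, Retnlg and Cxcr2 did not pass, and mean Mpo was 6118 CPM in leukemic and 4690 CPM in non-leukemic libraries. All 12 T and NK cell markers rose, with sums of 1269 to 2604 CPM in leukemic and 296 to 581 CPM in non-leukemic libraries. Of 12 eosinophil, basophil and mast cell markers 5 rose and 1 fell, with sums of 11075 to 35955 CPM in leukemic and 5546 to 11078 CPM in non-leukemic libraries. The 5 that rose were the basophil and mast cell genes Mcpt8, Prss34, Cpa3, Ms4a2 and Fcer1a. Ear2, an eosinophil gene, fell, and the eosinophil genes Prg2 and Epx did not pass (log2 fold changes of -0.18 ± 0.22 and 0.05 ± 0.24). Proliferation genes fell in 10 of 14, with sums of 3527 to 4982 CPM in leukemic and 4240 to 8409 CPM in non-leukemic libraries, and 0 of 9 B cell markers passed, with sums of 415 to 996 CPM in leukemic and 498 to 985 CPM in non-leukemic libraries. Markers of adipocytes, which make much fat, were at or near 0: the 7 summed to at most 0.375 CPM in leukemic and 0.770 CPM in non-leukemic libraries, and Plin1, Cidec and Lep had 0 counts, a count that allows a level of up to 0.1 to 0.177 CPM. Pck1 also had 0 counts in the non-leukemic libraries. The source of these transcripts and their part in the results below were not tested. Fewer genes were detected in female leukemic replicate 1, which stood apart (17891, where the other libraries had 19521 to 21247). Its total of 30014855 counts was nevertheless the highest of all libraries. Male non-leukemic replicate 3 had the macrophage marker sum of 4582 CPM, against 1235 to 1699 CPM in the other non-leukemic libraries. Counts of genes that passed are also given without these 2 libraries.

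On average, transcripts of these genes took a larger part of the leukemic libraries than of the non-leukemic libraries. Summed over the 32 genes, the level was 2308 ± 471 CPM in leukemic and 1700 ± 110.3 CPM in non-leukemic libraries (SD, n = 6 each), a ratio of 1.36. Without female leukemic replicate 1 the leukemic level was 2439 ± 386 CPM (SD, n = 5) and the ratio 1.43. The sum was 1654, 2128 and 1964 CPM in female leukemic, 2904, 2550.3 and 2649 CPM in male leukemic, 1765, 1568 and 1867 CPM in female non-leukemic and 1729, 1605 and 1664 CPM in male non-leukemic libraries. All 3 male leukemic libraries were above every other library, and female leukemic replicate 1 lay within the range of the non-leukemic libraries. In the test of leukemic against non-leukemic libraries with sex as a term, 9 genes passed as higher (28.1%), where 8.71% of all genes tested did, and 0 passed as lower, where 9.2% did. Without adjustment of p, 14 of the 32 were higher and 2 lower, where 2347 and 2408 of the 15758 genes tested were. The fold change was positive for 26 of 32 genes, against 49.3% of all genes tested, and its median was 0.35 on the log2 scale, against -0.01 for all genes tested. In whole-cell-population libraries such as these, fewer cells of a type and less RNA per cell cannot be told apart. Of all genes called, 48.7% were higher with the scaling used and 59.9% with scaling by library totals alone. Under the latter, 11 of the 32 genes passed as higher and 0 as lower, where 1673 and 1119 of the 15758 genes tested did.

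**Figure D1:**
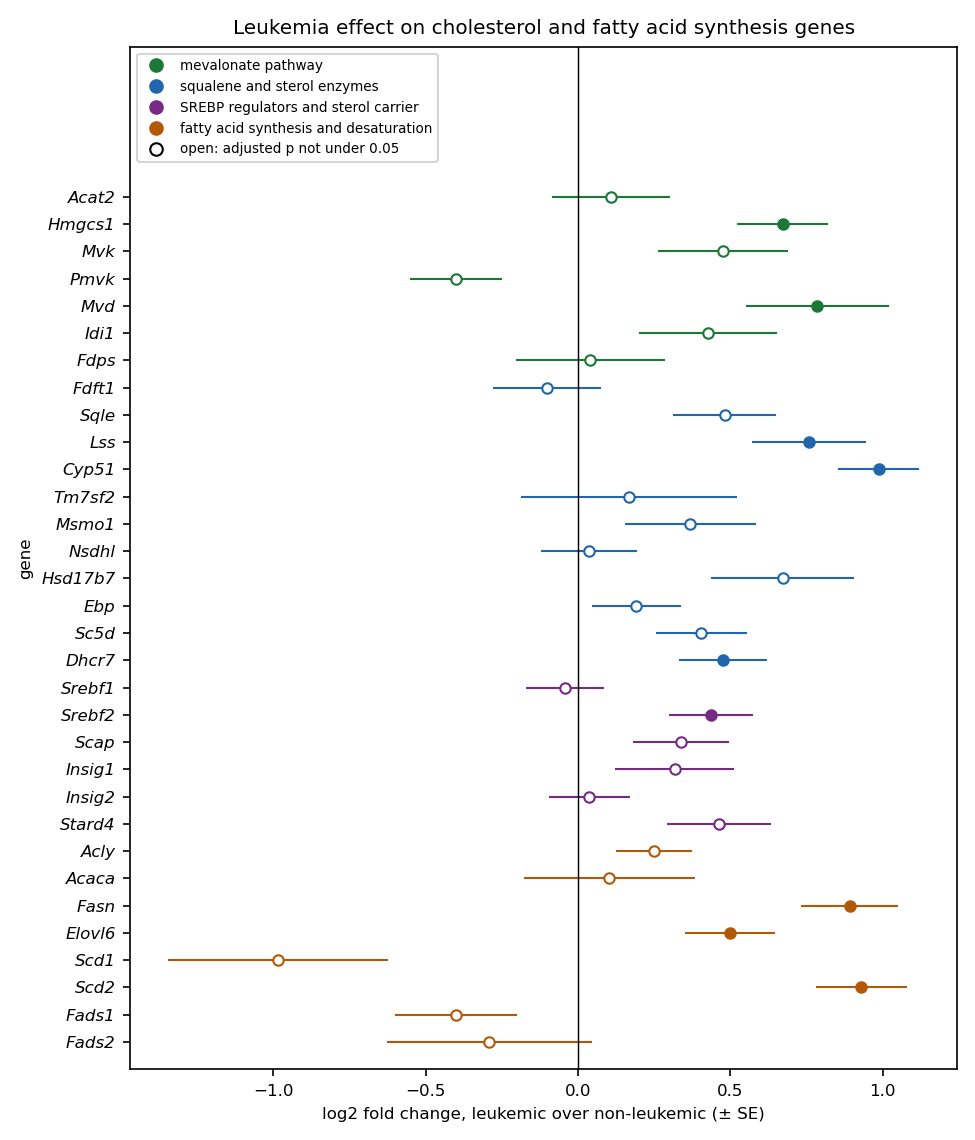
Log2 fold change of each of the 32 genes, leukemic over non-leukemic, with its standard error (horizontal axis, log2 scale), grouped by role in colour and with filled points for adjusted p under 0.05. The 9 filled points all lie above 0, and Scd1, at -0.99, is the gene farthest below 0.

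Only Lss and Cyp51 had all 6 leukemic libraries above all 6 non-leukemic libraries, 2 of 32 genes where 5.05% of all genes tested did, and 0 had all 6 below, where 3.63% did. In 6 other genes that passed the groups overlapped through 1 leukemic library, which was female leukemic replicate 1 for Hmgcs1, Fasn, Elovl6 and Scd2 and female leukemic replicate 3 for Mvd and Dhcr7. Leaving out each library in turn, Hmgcs1, Lss, Cyp51, Fasn and Scd2 passed in all 12 fits. Mvd and Dhcr7 did not pass in 7 of them, with adjusted p up to 0.0808 and 0.0802, and Srebf2 and Elovl6 did not pass in 8, with adjusted p up to 0.101 and 0.0847. Each of those 4 lost its pass without male leukemic replicate 1, without male leukemic replicate 2 and without female non-leukemic replicate 2, and in each of these 3 fits 5 genes passed. Mvd also did not pass without male non-leukemic replicate 2, female non-leukemic replicate 3, male leukemic replicate 3 or female leukemic replicate 2. The further losses of Dhcr7 were without male non-leukemic replicate 1 or 2, female non-leukemic replicate 3 or male leukemic replicate 3. For Srebf2 they were without male non-leukemic replicate 1 or 2, female non-leukemic replicate 1, male leukemic replicate 3 or female leukemic replicate 3, and for Elovl6 without male non-leukemic replicate 1, female non-leukemic replicate 1 or 3, or female leukemic replicate 2 or 3. Against a minimum change of 1.5-fold, 1 gene passed, Cyp51.

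**Figure D2:**
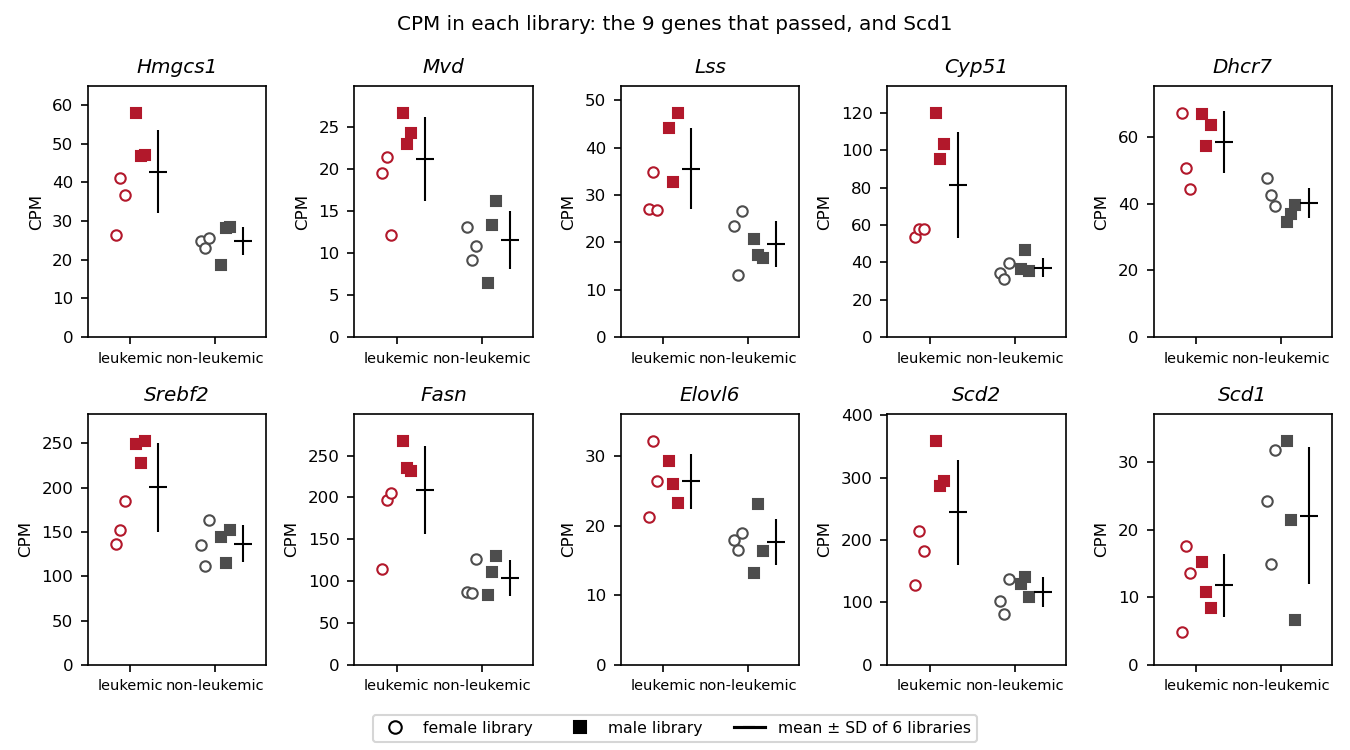
CPM of the 9 genes that passed and of Scd1 in each of 12 libraries (vertical axis, linear, from 0), leukemic left and non-leukemic right, open circles for female and squares for male libraries, with the mean and SD of 6 libraries as the cross beside them. Cyp51 runs from 53.5 to 119.9 CPM in leukemic and from 31.0 to 46.4 CPM in non-leukemic libraries, and Scd1 is the panel in which the leukemic mean is the lower.

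Of the 7 genes of the mevalonate pathway, which turns acetyl-CoA into isoprenoid units, 2 passed as higher and 5 did not pass. Hmgcs1, which makes HMG-CoA, had a lowest, median and highest level of 26.3, 44.0 and 58.0 CPM in leukemic libraries, against 18.6, 25.3 and 28.5 CPM in non-leukemic libraries. Female leukemic replicate 1 was the only leukemic library below the highest non-leukemic one. The change was 0.67 ± 0.15 on the log2 scale (SE, adjusted p = 0.00759). Mvd, the decarboxylase that yields isopentenyl diphosphate, had 12.2, 22.3 and 26.7 CPM in leukemic libraries, against 6.43, 12 and 16.2 CPM in non-leukemic libraries. Its lowest leukemic value, in female leukemic replicate 3, was within the non-leukemic range and the other 5 were above it. The change was 0.79 ± 0.23 on the log2 scale (adjusted p = 0.0345). Mvk, the first kinase of mevalonate, had 13.7, 16.3 and 28.2 CPM in leukemic libraries, against 9.05, 13.0 and 15.4 CPM in non-leukemic libraries, with a change of 0.48 ± 0.21 on the log2 scale (adjusted p = 0.151).

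The next kinase, Pmvk, had a negative change that did not pass. It had 21.1, 31.1 and 32.3 CPM in leukemic libraries, against 29.9, 35.1 and 49.4 CPM in non-leukemic libraries, with a change of -0.40 ± 0.15 on the log2 scale (adjusted p = 0.0859). The groups overlapped, since 4 of the 6 leukemic libraries were above the lowest non-leukemic one. Idi1, the isomerase of isopentenyl diphosphate, had a change of 0.43 ± 0.23 on the log2 scale (adjusted p = 0.23). Acat2, which condenses acetyl-CoA in the cytosol, had 0.11 ± 0.19 (adjusted p = 0.762), and Fdps, which makes farnesyl diphosphate, had 0.04 ± 0.24 (adjusted p = 0.938). The 7 fold changes ran from -0.40 to 0.79 with a median of 0.43, and the summed level was 171 ± 31.1 CPM in leukemic and 136 ± 15.5 CPM in non-leukemic libraries.

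Among the 11 enzymes from squalene to cholesterol, 3 passed as higher and 10 had a positive fold change. Cyp51, the lanosterol demethylase, had 53.5, 76.6 and 119.9 CPM as its lowest, median and highest leukemic level, against 31.0, 36.0 and 46.4 CPM in non-leukemic libraries. No library of either condition reached into the range of the other. Its change of 0.99 ± 0.13 on the log2 scale (adjusted p = 0.000300) was the highest of the 32. Lss, the cyclase that makes lanosterol, had 26.8, 33.9 and 47.3 CPM in leukemic libraries, against 13.2, 19.1 and 26.6 CPM in non-leukemic libraries. These ranges did not overlap but nearly touched, and the change was 0.76 ± 0.19 on the log2 scale (adjusted p = 0.0137). Dhcr7, the last reductase of the pathway, had 44.5, 60.5 and 67.2 CPM in leukemic libraries, against 34.6, 39.5 and 47.6 CPM in non-leukemic libraries. Female leukemic replicate 3, its lowest, was the only leukemic library inside the non-leukemic range, and the change was 0.48 ± 0.14 on the log2 scale (adjusted p = 0.0373).

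The other 8 sterol enzymes did not pass. Sqle, the squalene epoxidase, had 72.9, 101 and 129 CPM in leukemic libraries, against 54.5, 64.8 and 90.0 CPM in non-leukemic libraries, with a change of 0.48 ± 0.17 on the log2 scale (adjusted p = 0.0694). All 3 of its leukemic values above the non-leukemic range came from male libraries. Hsd17b7, a sterol ketone reductase, had 11.6, 15.3 and 24.1 CPM in leukemic libraries, against 5.60, 8.94 and 13.8 CPM in non-leukemic libraries, with a change of 0.67 ± 0.23 on the log2 scale (adjusted p = 0.0658). For Sc5d, the lathosterol desaturase, the values were 28.5, 47.5 and 51.3 CPM in leukemic and 25.8, 30.7 and 38.6 CPM in non-leukemic libraries, with a change of 0.41 ± 0.15 on the log2 scale (adjusted p = 0.0809). Both overlapped between conditions. Sqle passed without female non-leukemic replicate 1 or without female leukemic replicate 2 or 3 (lowest adjusted p = 0.0293), Hsd17b7 without female non-leukemic replicate 1 (adjusted p = 0.0106) and Sc5d without female leukemic replicate 2 (adjusted p = 0.0225). The methyl oxidase Msmo1 had a log2 fold change of 0.37, the isomerase Ebp 0.19, the reductase Tm7sf2 0.17, the dehydrogenase Nsdhl 0.04 and the squalene synthase Fdft1 -0.10, with adjusted p of at least 0.277. Summed over the 11 genes, the level was 554 ± 96.6 CPM in leukemic and 390.1 ± 23.8 CPM in non-leukemic libraries, a ratio of 1.42.

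Among the 5 SREBP regulators and the sterol carrier gene Stard4, 1 passed, Srebf2. It had 136, 206 and 253 CPM in leukemic libraries, against 112, 139 and 163 CPM in non-leukemic libraries, with a change of 0.44 ± 0.14 on the log2 scale (adjusted p = 0.0433). The 3 male leukemic libraries were above every non-leukemic library, and 2 of the 3 female leukemic libraries were inside the non-leukemic range. Srebf1, whose product mainly drives fatty acid synthesis, had 105, 153 and 173 CPM in leukemic libraries, against 110.7, 149 and 153 CPM in non-leukemic libraries, with a change of -0.04 ± 0.13 on the log2 scale (adjusted p = 0.875). The groups overlapped, with 3 leukemic libraries above and 1 below every non-leukemic library.

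Scap had 44.6, 96.1 and 111 CPM in leukemic libraries, against 51.2, 65.5 and 75.3 CPM in non-leukemic libraries, with a change of 0.34 ± 0.16 on the log2 scale (adjusted p = 0.169). Stard4, which encodes a protein that moves cholesterol between membranes, had 15.7, 33.1 and 43.4 CPM in leukemic libraries, against 17.5, 21.5 and 23.3 CPM in non-leukemic libraries, with a change of 0.46 ± 0.17 on the log2 scale (adjusted p = 0.0821). In both genes female leukemic replicate 1 was the lowest of all 12 libraries and the other 5 leukemic libraries were above every non-leukemic library. Without that library Stard4 (adjusted p = 0.00448) and Scap (adjusted p = 0.0115) passed. Insig1, itself a known SREBP target, had a change of 0.32 ± 0.19 in log2 units (adjusted p = 0.305), and Insig2 had 0.04 ± 0.13 (adjusted p = 0.889).

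The 8 genes of fatty acid synthesis and desaturation had the widest range of fold changes, from -0.99 to 0.93 on the log2 scale, and 3 of them passed as higher and 0 as lower. Fasn, the fatty acid synthase, had 114, 218 and 268 CPM in leukemic libraries, against 83.8, 99.3 and 130.1 CPM in non-leukemic libraries. Female leukemic replicate 1 was again the only leukemic library within the non-leukemic range. The change was 0.89 ± 0.16 on the log2 scale (adjusted p = 0.00201). Elovl6, which elongates palmitate, had 21.2, 26.1 and 32.2 CPM in leukemic libraries, against 13.2, 17.2 and 23.1 CPM in non-leukemic libraries, with a change of 0.50 ± 0.15 on the log2 scale (adjusted p = 0.0345). Acly, which makes cytosolic acetyl-CoA from citrate, had 257, 447 and 554 CPM in leukemic libraries, against 304, 325 and 397 CPM in non-leukemic libraries, with a change of 0.25 ± 0.12 on the log2 scale (adjusted p = 0.201). In Acly 5 leukemic libraries were above every non-leukemic one and female leukemic replicate 1 was below them all, and without it the gene passed (adjusted p = 0.0278).

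The delta-9 desaturases Scd2 and Scd1, which put the first double bond into saturated fatty acids, had fold changes of opposite sign. Scd2 had 129, 250.2 and 359 CPM in leukemic libraries, against 80.9, 119 and 140.5 CPM in non-leukemic libraries, with a change of 0.93 ± 0.15 on the log2 scale (adjusted p = 0.000960). All leukemic libraries but female replicate 1 were above the non-leukemic range. Scd1 had 4.83, 12.2 and 17.7 CPM in leukemic libraries, against 6.62, 22.9 and 33.2 CPM in non-leukemic libraries, with a change of -0.99 ± 0.36 on the log2 scale (adjusted p = 0.0794). The lowest non-leukemic value, 6.62 CPM, was that of male replicate 3, and 4 of the other 5 were above every leukemic library. Scd1 passed as lower without that library (-1.17, adjusted p = 0.0176), without both libraries that stood apart (-0.99, adjusted p = 0.0139) and with DESeq2 on all libraries (-0.97, adjusted p = 0.0329). Per kilobase of exon, the ratio of Scd2 to Scd1 was 10.9, 22.4 and 31.3 as the lowest, median and highest leukemic value, against 3.51, 4.35 and 14.7 in non-leukemic libraries. Only male non-leukemic replicate 3 reached into the leukemic range of this ratio.

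Fads1 and Fads2, the delta-5 and delta-6 desaturases of polyunsaturated fatty acids, did not pass. Fads1 had 35.8, 70.6 and 91.7 CPM in leukemic libraries, against 53.6, 93.1 and 108 CPM in non-leukemic libraries, with a change of -0.40 ± 0.20 on the log2 scale (adjusted p = 0.199). Fads2 had 26.0, 68.3 and 91.6 CPM in leukemic libraries, against 26.8, 78.3 and 112 CPM in non-leukemic libraries, with -0.29 ± 0.34 (adjusted p = 0.622). In both genes the 2 libraries that stood apart were the lowest of their condition. Acaca, the carboxylase that makes malonyl-CoA, had 3.66, 8.89 and 12.2 CPM in leukemic libraries, against 5.22, 6.55 and 12.4 CPM in non-leukemic libraries, with a change of 0.10 ± 0.28 on the log2 scale (adjusted p = 0.855).

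**Figure D3:**
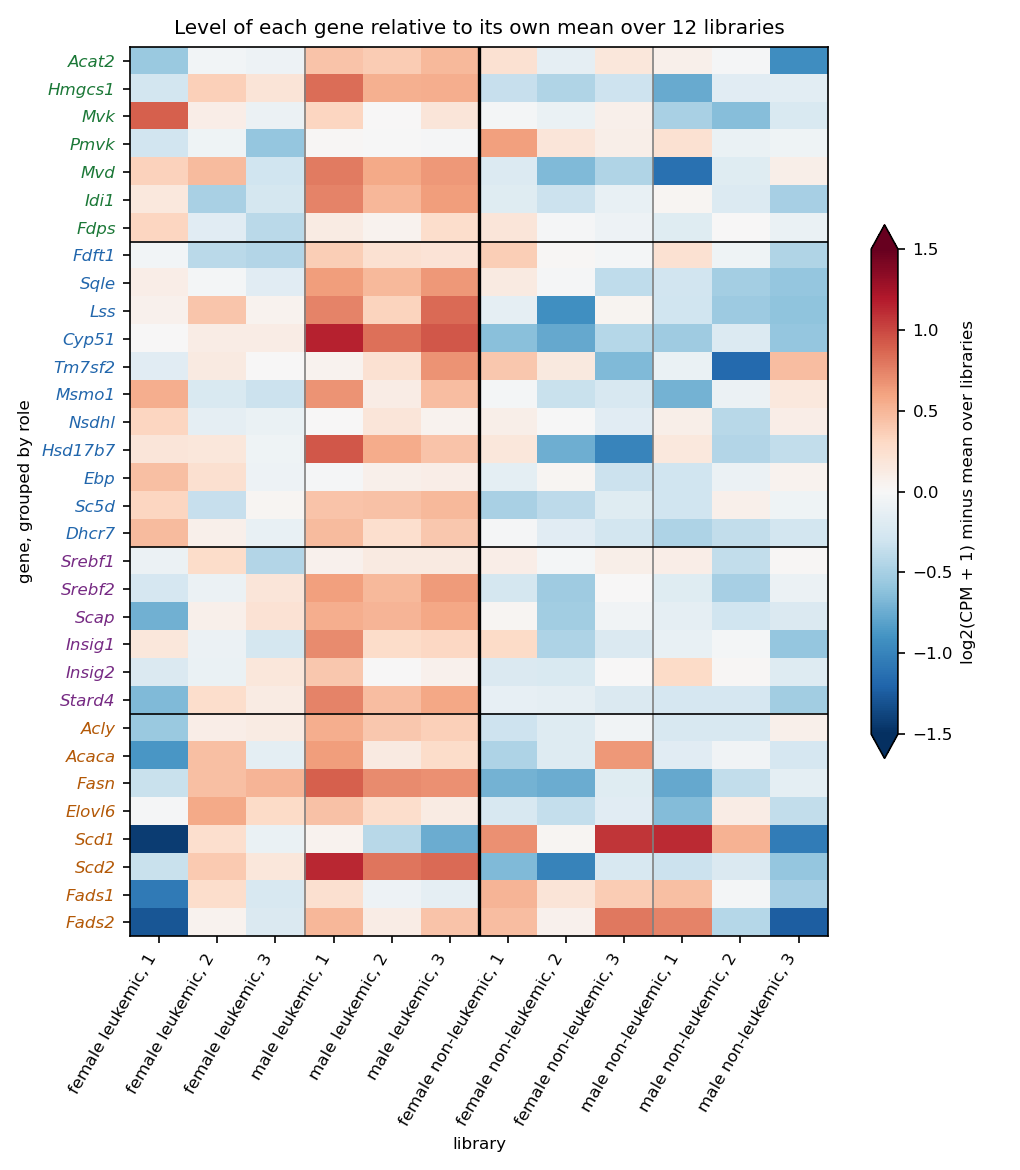
Level of each of the 32 genes in each of 12 libraries as log2(CPM + 1) minus the mean of the gene over the 12 libraries (colour, red above and blue below the mean), rows by role and columns by group with leukemic libraries left of the thick line. The 3 male leukemic columns are red in most rows, and female leukemic replicate 1 is deep blue in Scd1, Fads1 and Fads2 and red in Mvk.

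Levels between genes were compared per kilobase of exon (GENCODE M21). Acly was the highest of the 32 in both conditions, at 82.5 ± 19.7 CPM per kilobase in leukemic and 64.2 ± 6.66 in non-leukemic libraries (SD, n = 6 each), and Acaca was the lowest, at 0.498 ± 0.177 in leukemic and 0.431 ± 0.151 in non-leukemic libraries. Scd2 was in rank 2 in leukemic libraries, at 44.7 ± 15.4 CPM per kilobase, and in rank 5 in non-leukemic libraries, at 21.4 ± 4.28. In rank 3 in leukemic libraries was Ebp (39.1 ± 5.5 CPM per kilobase), which was in rank 2 in non-leukemic libraries (32.6 ± 3.56). The ratio of Srebf2 to Srebf1 per kilobase had a lowest, median and highest value of 0.690, 1.20 and 1.37 in leukemic libraries, against 0.623, 0.774 and 0.839 in non-leukemic libraries. Neighbours in this order often differed by less than their SD, as did Srebf2 (27.9 ± 6.99) and Srebf1 (26.0 ± 4.19) in leukemic libraries.

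The leukemia effect was then taken within each sex, from the libraries of the pooled comparison. In female libraries 2 genes passed as higher, Cyp51 and Scd2, or 6.25% of the 32 where 3.84% of all genes tested did, and 0 as lower, where 4.59% did. In male libraries 8 passed as higher, Hmgcs1, Sqle, Lss, Cyp51, Srebf2, Stard4, Fasn and Scd2, or 25% where 3.34% of all genes did, and 0 as lower, where 4.04% did. The median log2 fold change of the 32 genes was 0.10 in female and 0.47 in male libraries, against 0.02 and -0.03 for all genes tested. Without female leukemic replicate 1 it was 0.08 in female and 0.49 in male libraries. Cyp51 had 53.5, 58.0 and 57.8 CPM in female leukemic and 34.4, 31.0 and 39.6 CPM in female non-leukemic libraries, a change of 0.70 ± 0.15 on the log2 scale (adjusted p = 0.0169). In male libraries it had 119.9, 95.3 and 103 CPM in leukemic and 36.6, 46.4 and 35.4 CPM in non-leukemic libraries, a change of 1.28 ± 0.15 on the log2 scale (adjusted p = 0.000591). The groups did not overlap in either sex, and the male leukemic values were the highest.

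Scd2 had 129, 215 and 183 CPM in female leukemic and 103, 80.9 and 138 CPM in female non-leukemic libraries, which overlapped, with a change of 0.70 ± 0.20 on the log2 scale (adjusted p = 0.0476). Male leukemic libraries had 359, 286 and 294 CPM and male non-leukemic libraries 130.2, 140.5 and 108 CPM, with a change of 1.16 ± 0.20 in log2 units (adjusted p = 0.00430) and no overlap. For Sqle, female leukemic libraries had 87.8, 80.4 and 72.9 CPM and female non-leukemic libraries 90.0, 80.8 and 62.7 CPM, with a change of 0.06 ± 0.18 on the log2 scale (adjusted p = 0.884). The female values of Sqle were interleaved between the conditions. Male leukemic libraries had 127, 115 and 129 CPM of Sqle and male non-leukemic libraries 67.0, 57.1 and 54.5 CPM, with a change of 0.90 ± 0.18 on the log2 scale (adjusted p = 0.00967). Srebf2 showed the same arrangement. Its female leukemic libraries had 136, 153 and 185 CPM and its female non-leukemic libraries 135, 112 and 163 CPM (0.21 ± 0.18, adjusted p = 0.542), which overlapped. Its male leukemic libraries had 249, 228 and 253 CPM and its male non-leukemic libraries 144, 115 and 153 CPM (0.67 ± 0.18, adjusted p = 0.0425), which did not.

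**Figure D4:**
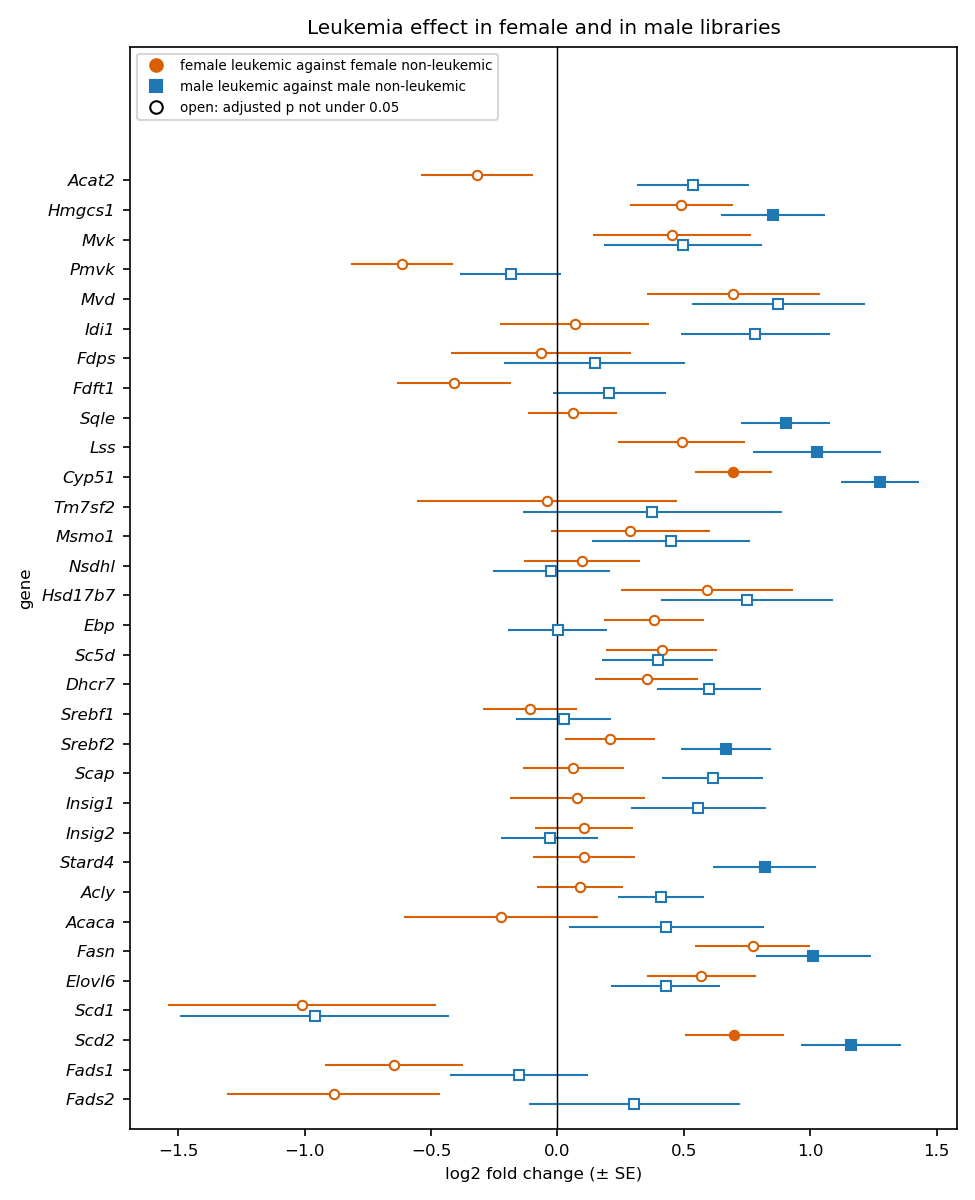
Log2 fold change of each of the 32 genes, leukemic over non-leukemic, with its standard error, in female libraries (circles) and in male libraries (squares), filled where adjusted p was under 0.05. The squares lie to the right of the circles for 27 of 32 genes, while 0 genes passed the test of the difference between the sexes.

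Stard4, Hmgcs1, Lss and Fasn were the other genes that passed in male libraries. Stard4 had 15.7, 30.8 and 27.9 CPM in female leukemic and 23.3, 23.1 and 21.7 CPM in female non-leukemic libraries (0.11 ± 0.20, adjusted p = 0.811), against 43.4, 35.4 and 38.7 CPM in male leukemic and 21.3, 21.3 and 17.5 CPM in male non-leukemic libraries (0.82 ± 0.20, adjusted p = 0.0311). Only its male groups were separate. Hmgcs1 had log2 fold changes of 0.49 in female and 0.85 in male libraries, Lss 0.49 and 1.03, and Fasn 0.77 and 1.01. Adjusted p for these 3 was 0.169, 0.267 and 0.0581 in female and 0.0281, 0.0300 and 0.0204 in male libraries. The within-sex calls leaned on single libraries: with 1 library left out, 0 to 3 genes passed as higher in females and 3 to 11 in males. In females 0 passed without female non-leukemic replicate 1 or 2, and 1 passed, Cyp51, without any 1 of the male leukemic libraries, male non-leukemic replicate 2 or female leukemic replicate 2 or 3. In males 3 passed without male non-leukemic replicate 1 or 2 or male leukemic replicate 1 or 3, and 4 passed without male leukemic replicate 2. Cyp51, Scd2 and Sqle passed in males in all 12 of these fits. Without both libraries that stood apart, 4 genes passed as higher in females, with Fasn and Hmgcs1 added, and 14 in males. Calls over all genes were not counted for these within-sex omissions.

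The difference of the 2 effects was tested as an interaction. It was negative, with the smaller effect in females, for 27 of 32 genes, against 48.7% of all genes tested, with a median of -0.39 on the log2 scale, and 0 genes passed with edgeR, as 0% of all genes did. Without female leukemic replicate 1 it was negative for 28 of 32 genes, with a median of -0.38. Without adjustment 4 of the 32 had p under 0.05, against 925 of all genes tested. These were Sqle (-0.84 ± 0.25), Acat2 (-0.85 ± 0.31), Cyp51 (-0.58 ± 0.22) and Stard4 (-0.71 ± 0.29), all with an adjusted p of at least 0.815 from edgeR. DESeq2 and limma-voom also passed 0 of the 32. The female and male effects of Acat2 had opposite signs, -0.32 ± 0.22 and 0.54 ± 0.22, and neither passed (adjusted p = 0.440 and 0.184).

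Female and male leukemic libraries were also set against each other, a comparison chosen after the values had been seen. In 18 of 32 genes all 3 female leukemic libraries were below all 3 male leukemic libraries, where 15% of all genes tested were, and in 0 genes above them, where 5.13% were. Without female leukemic replicate 1 the other two female leukemic libraries were below all 3 male ones in 22 of 32 genes, where 20.6% of all genes tested were. The 18 held 5 of the 7 mevalonate genes, 5 of the 11 sterol enzymes, 4 of the 6 regulators and carrier, and 4 of the 8 fatty acid genes. Among non-leukemic libraries all 3 female libraries were below all 3 male ones in 0 genes, where 4.42% of all genes were, and above them in 2, Mvk and Stard4, where 6.2% were. With edgeR 0 of the 32 genes passed in either direction between female and male leukemic libraries (0% of all genes did), and 9 were lower without adjustment, among 511 lower of all genes tested. The lowest p was that of Cyp51 (-0.77 ± 0.15, adjusted p = 0.382), which passed with DESeq2 as the only 1 of the 32. Between female and male non-leukemic libraries 0 of the 32 passed with edgeR, 0 had p under 0.05 without adjustment, and 0% of all genes passed. With edgeR the design made 0 calls between sexes over all genes, sex-linked genes included, so a lack of calls cannot tell that the sexes are alike. Xist, which is transcribed from the inactive X chromosome of females, did not pass in leukemic libraries (5.17 ± 1.10, adjusted p = 0.382). The Y-linked gene Eif2s3y did not pass in non-leukemic libraries (-7.67 ± 1.08, adjusted p = 0.212). The 4 Y-linked genes Ddx3y, Eif2s3y, Kdm5d and Uty summed to 5.20, 1.42 and 14.9 CPM in female leukemic and 160.02, 152 and 141 CPM in male leukemic libraries. In non-leukemic libraries they summed to 0, 2.25 and 0 CPM in female and 183, 159 and 102 CPM in male libraries. Female leukemic replicates 1 and 3 were thus above every female non-leukemic library, and all female libraries were far below all male ones. The part of these Y-linked reads in the comparison of the sexes was not tested. Neutrophil markers summed to 20858 to 27681 CPM in female and 12821 to 15962 CPM in male leukemic libraries, and eosinophil, basophil and mast cell markers to 17407 to 35955 CPM in female and 11075 to 13580 CPM in male leukemic libraries. Their part in the difference between the sexes was not tested.

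All 3 male leukemic libraries were above all 6 non-leukemic libraries in 17 of 32 genes, where 18.5% of all genes tested were, and all 3 female leukemic libraries in 2, Lss and Cyp51, where 7.06% were. The summed mevalonate level was 132 to 158 CPM in female and 186 to 209.6 CPM in male leukemic libraries, against 117.5 to 162 CPM over the non-leukemic libraries. The sterol enzymes summed to 423 to 550.4 CPM in female and 584 to 664 CPM in male leukemic libraries, against 372 to 435 CPM in non-leukemic libraries. The fatty acid genes summed to 591 to 1037 CPM in female and 1206 to 1419 CPM in male leukemic libraries, against 689 to 904 CPM in non-leukemic libraries. Male leukemic sums were above the non-leukemic range in each of these groups, while female leukemic sums overlapped it in all 3.

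**Figure D5:**
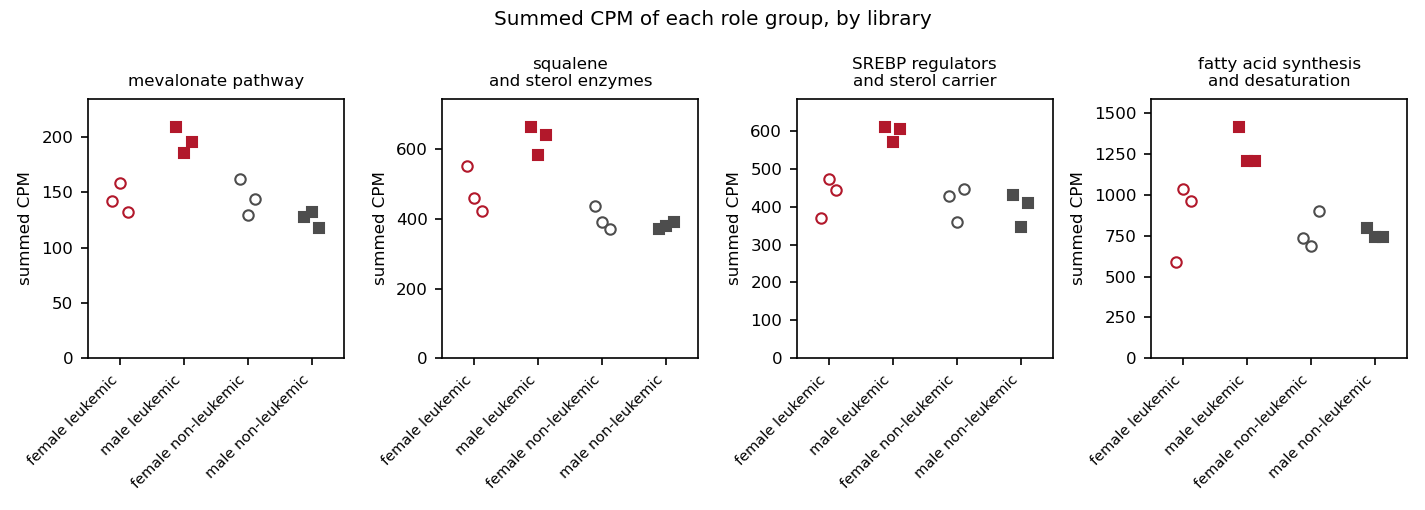
Summed CPM of the 4 role groups in each library (vertical axis, linear, from 0), with female leukemic, male leukemic, female non-leukemic and male non-leukemic libraries from left to right. Male leukemic libraries are the highest in every panel, and the lowest female leukemic point of the fatty acid panel, at 591 CPM, is replicate 1.

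Female leukemic replicate 1 held the lowest leukemic value in 16 of 32 genes, which included all 8 of the fatty acid group, and the highest in 5, Mvk, Fdps, Nsdhl, Ebp and Dhcr7. In 8 genes, among them Acly, Scd1, Fads1 and Fads2, it was below every non-leukemic library. Without it and male non-leukemic replicate 3, 12 genes passed as higher (Acly, Cyp51, Dhcr7, Elovl6, Fasn, Hmgcs1, Lss, Mvd, Scap, Scd2, Srebf2 and Stard4) and 1 as lower (Scd1), with a median log2 fold change of 0.33. In that fit 2421 of 16300 genes tested were higher and 2296 lower, against 1373 and 1449 of 15758 with all libraries.

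Neighbouring pathways were compared in the same fit, from a list of each pathway. Of 8 genes of SREBP processing and degradation 0 rose and 1 fell, and the median change was 0.09 on the log2 scale. The shares of all genes tested that passed, 8.71% as higher and 9.2% as lower, are the background for this list and for the lists that follow, and 1 of 8 is near them. The gene that fell was Rnf139, a sterol-responsive ubiquitin ligase of the endoplasmic reticulum, at 44.6 ± 4.33 CPM in leukemic and 72.5 ± 14.6 CPM in non-leukemic libraries (-0.76 ± 0.14, adjusted p = 0.00254). Mbtps2, the site-2 protease that releases SREBP, had 6.66 ± 1.22 CPM in leukemic and 3.93 ± 1.37 CPM in non-leukemic libraries (0.70 ± 0.26, adjusted p = 0.0867), and Tmem97, a sterol-regulated membrane protein, had 77.5 ± 13.1 CPM in leukemic and 55.4 ± 7.49 CPM in non-leukemic libraries (0.41 ± 0.16, adjusted p = 0.0890). In the isoprenoid and coenzyme Q branch 1 of 9 rose and 1 fell, with a median of 0.01. Coq2, which joins the isoprenoid tail to the coenzyme Q ring, had 78.2 ± 4.70 CPM in leukemic and 54.2 ± 7.39 CPM in non-leukemic libraries (0.46 ± 0.11, adjusted p = 0.0126). Fntb, a subunit of protein farnesyltransferase, had 17.2 ± 4.71 CPM in leukemic and 28.9 ± 5.81 CPM in non-leukemic libraries (-0.82 ± 0.18, adjusted p = 0.00803), and Ggps1, which makes geranylgeranyl diphosphate, did not pass (0.48 ± 0.21, adjusted p = 0.135).

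Among 14 other lipogenic enzymes 2 rose and 1 fell, with a median of 0.10. Hsd17b12, the reductase of fatty acid elongation, had 93.9 ± 13.9 CPM in leukemic and 58.9 ± 12.4 CPM in non-leukemic libraries (0.59 ± 0.13, adjusted p = 0.00644). Elovl5, an elongase of polyunsaturated fatty acids, had 155 ± 21.1 CPM in leukemic and 99.4 ± 23.7 CPM in non-leukemic libraries (0.58 ± 0.15, adjusted p = 0.0194), and Lpin1, a phosphatidate phosphatase, had 39.3 ± 9.03 CPM in leukemic and 59.3 ± 17.1 CPM in non-leukemic libraries (-0.68 ± 0.20, adjusted p = 0.0299). In the list of the oxysterol receptors LXR and genes they act with, 9 of 10 genes were tested, 0 rose and 2 fell, with a median of -0.32. Lpcat3, which puts polyunsaturated fatty acids into phospholipids, had 99.0 ± 14.3 CPM in leukemic and 181 ± 43.4 CPM in non-leukemic libraries (-0.93 ± 0.15, adjusted p = 0.000925). Cyp27a1, a sterol hydroxylase, had 7.33 ± 1.86 CPM in leukemic and 14.9 ± 4.06 CPM in non-leukemic libraries (-1.11 ± 0.26, adjusted p = 0.0101), and Nr1h2, which encodes LXR beta, had a fold change of -0.36 ± 0.12 and did not pass (adjusted p = 0.0528). The macrophage marker sum given above was also lower in leukemic libraries, and its part in these falls was not tested. Of 12 genes of fatty acid oxidation 11 were tested, 1 rose and 1 fell, with a median of -0.08. Hadh had 89.1 ± 9.14 CPM in leukemic and 60.8 ± 5.87 CPM in non-leukemic libraries (0.49 ± 0.12, adjusted p = 0.0126), Acadvl had 66.2 ± 3.72 CPM in leukemic and 87.4 ± 19.3 CPM in non-leukemic libraries (-0.46 ± 0.13, adjusted p = 0.0272), and Cpt2 did not pass (-0.29 ± 0.10, adjusted p = 0.0709). These 3 encode mitochondrial enzymes that break down or import fatty acyl groups.

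Depending on the counting settings, some of the counts could hold reads of other genes with overlapping exons or could have lost reads there. This includes genes on the opposite strand, since the amplification kit does not mark strand. In GENCODE M21 exons of 11 of the 32 genes overlap those of another gene, and among the genes that passed these are Hmgcs1, Lss, Cyp51, Elovl6 and Scd2. The overlap was 166 of 4415 exonic bases for Cyp51 with Akap9, 557 of 4594 for Hmgcs1 with Gm48342, 381 of 10787 for Lss with 4930483K19Rik, and 34 of 6431 for Elovl6 with Gm35986, all on the opposite strand. For Scd2 it was 61 of 5464 with Mir5114, on the same strand. Among the others, the overlap was longest for Fdps, at 1124 of 4208 exonic bases with Gm43738 on the same strand. Tm7sf2 overlaps Vps51 over 532 of 4403 bases, also on the same strand. Scap overlaps 5830462I19Rik over 985 of 7443 bases and Fdft1 overlaps Ctsb over 774 of 4227, both on the opposite strand. Scd1 and Scd2 are close relatives, with 4777 and 54607 counts over all libraries, while Scd3 and Scd4 had 16 and 97 counts. Reads that fit both Scd1 and Scd2 could have been split between them or left out.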

How the data were processed

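RNA sequencing counts of 12 libraries were used, 3 for each sex and condition. The deposited values are whole-number read counts per gene from the authors, not normalized. Per the submitters' processing notes, the build was GRCm39 and the tools named, with no role given, were STAR 2.7.9a, featureCounts, Subread 2.0.1, fastp 0.23.1, bcl2fastq 2.19.1, R 4.0.2 and DESeq2 1.28.1. Per the labels' protocols, a low-input full-length cDNA kit was used; the kit does not mark strand and has no molecular identifiers, so limits for a count of 0 (3 counts) cover counting error only.

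Genes were kept by edgeR's filterByExpr over the 4 groups, which left 15758 of 56832. The main comparison was edgeR 4.0.16 (R 4.3.3), quasi-likelihood test, TMM scaling, with terms for sex and condition. Comparisons within a sex, between sexes and their interaction came from 4 group means over all 12 libraries. P-values were two-sided and Benjamini-Hochberg adjusted over all genes tested, and a gene passed at an adjusted p under 0.05. CPM is a count scaled to a library total of 1000000. The standard error was the log2 fold change divided by the square root of F. The labels do not say whether libraries came from separate animals, so p-values measure only the spread between libraries. No library pair looked like a copy (within groups, chi-square over its degrees of freedom was at least 22.6). On simulated counts for the main comparison (15266 genes), 43.9% of 98 genes changed 2-fold and 83.5% of 97 changed 4-fold were recovered, and 4.62% of calls were false.

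All 32 members are named, and of each neighbouring list the 3 genes with the lowest p. The members and lists were chosen with earlier results of these data known. Alternatives were DESeq2 1.42.0, limma 3.58.1 (voom), other scalings, filters and designs, and leaving out libraries.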

Additional observations from a re-analysis of the deposited data

Results flagged for a closer look

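In 4 of 64 groups of 6 libraries tested, 1 library lay far from the other 5 of its condition by Dixon's criterion, and chance gives about 1 in 20. Mvk was 28.2 CPM in female leukemic replicate 1, where the next leukemic library had 18.5 CPM and the lowest 13.7 CPM. Srebf1 was 110.7 CPM in male non-leukemic replicate 2, where the nearest non-leukemic library had 140.5 CPM and the highest 153 CPM. Stard4 was 17.5 CPM in male non-leukemic replicate 3, against 21.3 CPM in the nearest and 23.3 CPM in the highest non-leukemic library. Acaca was 12.4 CPM in female non-leukemic replicate 3, against 7.21 CPM in the nearest and 5.22 CPM in the lowest non-leukemic library. No cause of these values was tested.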

How the results depend on the processing

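No direction of a called value reversed. Leukemic against non-leukemic, 9 genes were higher as reported, 9 with DESeq2's size factors in edgeR or without the sex term, 8 with the replicate block, 10 with limma-voom, 11 with library totals or a 5 CPM filter, 13 with DESeq2, 12 without both libraries that stood apart, 7 without a filter, 1 (Cyp51) against a 1.5-fold minimum and 5 to 12 with 1 library left out. As lower, 1 gene, Scd1, passed with DESeq2 and without both libraries, and 0 to 1 with 1 library left out. In females 2 were higher as reported, 1 with library totals or no filter, 0 against 1.5-fold or in a fit of the 6 female libraries, 4 without both libraries and 0 to 3 with 1 left out; 1 was lower with DESeq2 (Pmvk) and 1 without both libraries (Fdft1). In males 8 were higher as reported, 2 against 1.5-fold (Cyp51, Scd2), 14 without both libraries and 3 to 11 with 1 left out, and 1 was lower without both (Scd1). Female against male leukemic, 1 was lower with DESeq2 (Cyp51). With the replicate block Mvd (adjusted p = 0.0642) and Dhcr7 (0.0518) did not pass and Hsd17b7 (0.0162) did. In females 2 were higher with the block, Cyp51 and Fasn (0.0473), while Scd2 (0.0837) did not pass, and in males 7 were, without Stard4 (0.0617). Same-numbered libraries had correlations of deviations of -0.04 to 0.17. Differently numbered libraries were not compared, so these correlations cannot decide whether the numbers pair the libraries. The cause of these differences was not tested.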
